A study of Caenorhabditis elegans with 12 samples.

Results

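Worm embryos that carry the daf-12(sa204) allele were compared with wild type embryos on Affymetrix arrays. The comparison took every array titled daf-12 and every array titled WT, 4 of each, which are 8 of the 12 columns of the series. The wild type was N2 Bristol, strain JT5010, and the mutant was daf-12(sa204), strain JT204. The remaining group, daf-19(m86), daf-12(sa204), strain JT6924, carries the same daf-12 allele together with a daf-19 allele. Its columns 1 and 2 were identical in every probe set and counted once, which left 3 arrays of it and 11 in all. These 3 arrays share the estimate of the spread, and their values are given beside the others. All embryos were whole and at the 3-fold stage, the last stage of elongation before hatching, and no treatment is given. Each genotype came as 1 named strain, so the allele and other differences between the strains cannot be told apart. The labels do not say that replicates were separate cultures, so a p-value measures only the spread between these samples. In whole embryos, fewer cells of a type and less RNA per cell cannot be told apart.

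DAF-12 is a nuclear hormone receptor, related to the vertebrate vitamin D and liver X receptors, whose ligands are steroid hormones called dafachronic acids. With ligand bound it turns on genes for reproductive growth and for the timing of larval stages. Without ligand it binds the corepressor DIN-1 and directs entry into the dauer larva, a long-lived arrested form. Its roles are best known from larvae.

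Of 22548 non-control probe sets, 3 rose in the daf-12 mutant and 0 fell, at an adjusted p under 0.05 (limma, two-sided, Benjamini-Hochberg over all 22548). The 3 are 0.0133% of the probe sets tested. At an unadjusted p under 0.05, 435 probe sets were higher (1.93%) and 246 were lower (1.09%), 3.02% in all. Values are RMA log2 expression, and a change is the difference of group means on that scale, daf-12 minus wild type, with its standard error (SE). The median change over all probe sets was -0.03, and 161 probe sets differed by more than 1, of which 143 were higher and 18 lower in the mutant. Precision is limited by having 4 arrays a group.

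The gene nhj-1 on chromosome V was called higher. Its product is needed in worms to rejoin broken DNA ends by nonhomologous end joining. The 4 daf-12 arrays read 9.48, 9.53, 10.36 and 9.94 for nhj-1, and the 4 wild type arrays read 6.34, 7.27, 6.71 and 7.91. Every mutant array lay above every wild type array, and wild type array 4 came closest. The change of nhj-1 was 2.77 ± 0.34 (SE, n = 4 and 4), which is 6.82-fold, with a limma adjusted p of 0.0382. Taken alone, replicates 1 and 2 gave 2.70 and replicates 3 and 4 gave 2.84. The double mutant arrays, which carry the same daf-12 allele, read 9.41, 10.18 and 10.13 for nhj-1. All 3 lay above the 4 wild type arrays. The neighbours of nhj-1 had a median near 0. Across the nearest 20 protein-coding genes, 22 other probe sets had a median change of 0.04, and the highest was 0.68, at lact-8. In 0 of the 22 did the groups separate. Over all genes, every daf-12 array was above every wild type array in 0.900% and below in 0.678%, so a count of 0 is near that share.

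The other 2 called probe sets each carry the names of 2 genes, so the array cannot say which of the 2 gave the signal. The first names F56A4.2 and clec-209, a gene of the C-type lectin family. It read 8.94, 7.23, 8.84 and 9.42 on the daf-12 arrays and 5.48, 5.01, 6.01 and 5.01 on the wild type arrays. The groups did not overlap, and daf-12 array 2 was the lowest of the mutant arrays. The change at F56A4.2 and clec-209 was 3.23 ± 0.40 (SE, n = 4 and 4; limma adjusted p = 0.0382), with 2.84 and 3.62 in the 2 sets of replicates. In the double mutant it read 6.75, 6.68 and 6.80, between the other groups.

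The second names Y19D10A.5 and C01B4.8. It read 7.74, 7.16, 8.01 and 7.73 in the daf-12 mutant against 5.82, 6.20, 5.52 and 5.39 in wild type. Again no arrays overlapped between the groups. The change at Y19D10A.5 and C01B4.8 was 1.93 ± 0.23 (SE, n = 4 and 4; limma adjusted p = 0.0382), with 1.44 and 2.42 in the 2 sets. The double mutant read 7.05, 6.60 and 7.05, again between the other groups.

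These 3 calls rest on the whole set of arrays. Leaving out 1 array at a time in limma called 2 probe sets without daf-12 array 2 (those of F56A4.2 and clec-209 and of Y19D10A.5 and C01B4.8) and 1 without wild type array 4 (nhj-1). Without daf-12 array 1, 3 or 4, wild type array 1, 2 or 3, or double mutant array 1, 3 or 4, 0 were called, with a smallest adjusted p between 0.0585 and 0.2177 and 109 to 597 lower and 248 to 623 higher probe sets at an unadjusted p under 0.05. Over these 11 fits the change stayed between 2.53 and 3.06 for nhj-1, between 2.96 and 3.69 for F56A4.2 and clec-209, and between 1.82 and 2.097 for Y19D10A.5 and C01B4.8. Leaving out a double mutant array cannot move these changes, since that group is not part of the difference. With the 8 arrays of these groups alone in limma, 0 were called (smallest adjusted p = 0.2189), and 355 were higher and 206 lower at an unadjusted p under 0.05.

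**Figure D1:**
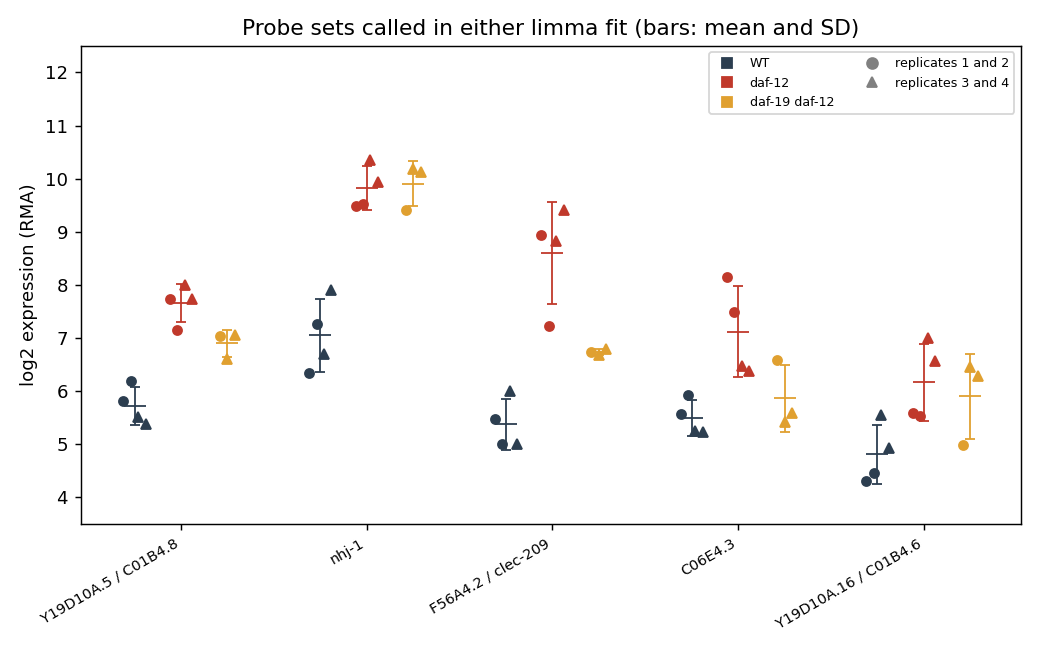
Log2 expression of the 5 probe sets called higher with or without a block for the set of arrays, by group. Points are single arrays, circles replicates 1 and 2 and triangles replicates 3 and 4, and bars are the mean and SD. Wild type, daf-12 and double mutant arrays of nhj-1 average 7.06, 9.83 and 9.91.

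Spike-in controls split the arrays in a way not named by any label. The 27 probe sets for poly-A spike-ins, RNAs added during labelling, averaged 4.08 to 4.24 on replicates 1 and 2 of both groups and 6.76 to 9.49 on replicates 3 and 4. With this set of arrays as a block, limma called 5 probe sets higher (0.0222%) and 0 lower, the same 3 among the 5. With the block, 736 were higher and 581 lower at an unadjusted p under 0.05. The block added C06E4.3 on chromosome IV and the probe set of Y19D10A.16 and C01B4.6. C06E4.3 read 8.16, 7.49, 6.47 and 6.38 in the daf-12 mutant and 5.58, 5.93, 5.25 and 5.23 in wild type. All mutant arrays were above all wild type arrays, and the gap was wider in replicates 1 and 2. The change of C06E4.3 was 1.63, with an SE of 0.21 with the block (limma adjusted p = 0.0478) and of 0.40 without (limma adjusted p = 0.9998). Near it, C06E4.6 differed by 1.16 ± 0.23, with no overlap of arrays but an adjusted p of 0.707. The added probe set of Y19D10A.16 and C01B4.6 had overlapping arrays, 5.54 to 6.997 in the mutant and 4.31 to 5.546 in wild type. Its change was 1.36 (limma adjusted p = 0.0478 with the block and 0.9998 without). The other probe set of these 2 genes gave 1.07 and was not called with the block (limma adjusted p = 0.231).

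One gene of each called probe set with 2 names lies in a run of neighbouring genes on chromosome V. The run spans 13 consecutive protein-coding genes in the order of the RefSeq annotation, from F56A4.4 to srd-61, and its ends were chosen after the values were seen. It holds chemoreceptor genes (str-267, srd-61), the astacin protease gene nas-2, mct-2 of the monocarboxylate transporter family, irld-35 of a family with insulin and EGF receptor L domains, and several genes known by sequence names. Of its 15 probe sets, 14 also carry the name of a second gene, such as clec-209, gst-10 or srd-75. All 25 genes named on these probe sets lie on chromosome V, so the signal may come from either gene of a pair. From irld-53 to srd-75, the second names are themselves neighbours on chromosome V in the same order, apart from Y19D10A.8, which has no probe set. These probe sets therefore fit 2 places on the chromosome, and the array cannot say which of them gave the signal.

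All 15 probe sets of the run were higher in the daf-12 mutant on average. Their changes ran from 0.24 to 3.23 with a median of 1.31. The groups were fully apart in 10 of them. Over all genes, each with 1 probe set of a single name, the 4 daf-12 arrays lay above the 4 wild type arrays in 154 of 17118 (0.900%) and below them in 116 (0.678%). The 14 probe sets of the run with 2 names are outside that count. The run was also bounded on these values, so the 2 shares are a description and not a test. Of the 15 probe sets of the run, 13 reached an unadjusted p under 0.05, 2 were called and 3 were called with the block for the set of arrays. The mean over the run was 7.20, 6.90, 7.39 and 7.41 on the daf-12 arrays and 5.68, 5.96, 5.87 and 5.71 on the wild type arrays. The double mutant arrays averaged 6.58, 6.58 and 6.64, above every wild type array and below every daf-12 array. Not every probe set followed that mean. At the 2 probe sets of C01B4.7 the double mutant averaged 10.53 and 9.45, against 10.26 and 9.33 in the daf-12 mutant. At nas-2 it averaged 5.26 against 4.97 in the daf-12 mutant. At F56A4.10 and mct-2 it averaged 4.38 and 4.998, against 4.44 and 5.01 in wild type.

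Both sets of replicates carried the difference, with medians of 0.99 and 1.52, but the probe sets were not alike in them. The probe set of irld-53 and irld-35 read 5.50, 5.77, 7.52 and 7.59 in the mutant, higher in replicates 3 and 4. That of Y45G12C.3 and F56A4.4 read 5.18, 4.84, 7.13 and 7.27, with the same split. The 2 probe sets of C01B4.7 and Y19D10A.4 differed the other way, by 2.55 and 2.27 in replicates 1 and 2 and by 1.56 and 1.41 in replicates 3 and 4. The only probe set of the run with a single name, that of F56A4.10, read 4.98, 4.996, 5.55 and 4.92 in the mutant and differed by 0.67 ± 0.19 (limma adjusted p = 1.00). Outside the run, a probe set that names Y19D10A.4 alone, the partner of C01B4.7, differed by 0.53 ± 0.23 (limma adjusted p = 0.9998). Its arrays did not overlap either. F56A4.10 shares no probe set with a second gene, so these values do not compare both sides of the pairs. At nas-2 and mct-2 the changes were 0.24 and 0.35, and in replicates 3 and 4 they were -0.07 and -0.05.

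Because the ends of the run were chosen on these values, its flanks are given as a description. Before the run, 9 probe sets of 7 genes had a median change of 0.17, and 8 of the 9 were above 0. The highest was that of srd-60 and srd-73, at 0.71 ± 0.25 with overlapping arrays (limma adjusted p = 1.00), above the lowest members of the run. After the run, 5 probe sets of the next 4 genes had a median of -0.05, and 1 was above 0. The genes that follow, srd-73, Y45G12C.16 and srd-72, share probe sets already counted before the run. Those gave 0.71, 0.25, 0.23 and 0.32, so the 2 flanks are not separate and the contrast between them depends on that count. Chromosome V as a whole had 61 of 4317 genes with all daf-12 arrays above all wild type arrays (1.41%). The share was 1.09% on chromosome IV, 0.935% on X and 0.497% to 0.622% on I, II and III.

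**Figure D2:**
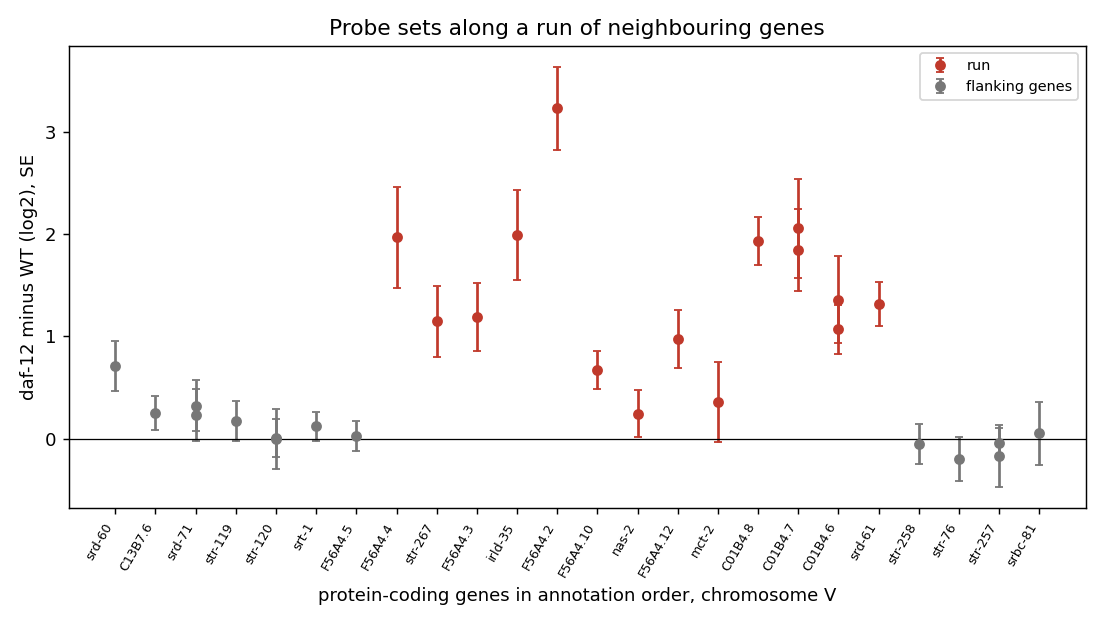
Change in log2 expression, daf-12 minus wild type with SE, at probe sets of neighbouring protein-coding genes on chromosome V in annotation order. The 15 red probe sets of the run all lie above 0 and reach 3.23, while the grey flanking ones lie between -0.20 and 0.71.

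Beyond the called probe sets, the genes of smallest p in each direction are given as values, since none passed the adjusted threshold. The gene tag-10 read 7.62, 7.21, 7.74 and 7.40 in the mutant and 5.76, 6.49, 6.31 and 5.58 in wild type, with no overlap. Its change was 1.46 ± 0.22 (limma adjusted p = 0.181), and its other probe set gave 1.34. The double mutant arrays of tag-10 read 6.21, 5.83 and 5.95, inside the wild type range. The nuclear hormone receptor gene nhr-125 read 7.96, 8.08, 8.79 and 8.17 against 6.45, 7.22, 7.21 and 6.79, a difference of 1.33 ± 0.24 (limma adjusted p = 0.471). Again the arrays did not overlap.

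The infection response gene irg-3 differed by 1.66 ± 0.35 (limma adjusted p = 0.770, and 0.0543 with the block for the set of arrays). It read 8.07, 7.83, 9.05 and 9.01 in the mutant and 6.03, 6.71, 7.53 and 7.04 in wild type. Both groups were higher in replicates 3 and 4. In the double mutant irg-3 read 7.01, 7.29 and 6.96. Of cathepsin B-like proteases, cpr-5 differed by 1.30 ± 0.26 and cpr-8 by 1.11 ± 0.23 (limma adjusted p = 0.707 and 0.710). The cytochrome P450 gene cyp-33C9 differed by 1.26 ± 0.25 (adjusted p = 0.707), and the genes D1054.8 and F13H8.1 by 1.38 and 0.70. In each of these 5 genes all daf-12 arrays were above all wild type arrays.

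The genes of smallest p in the lower direction had smaller differences, and limma gave them an adjusted p of 1.00. The origin recognition complex gene orc-2, which licenses DNA for replication, read 7.05, 7.15, 6.73 and 6.72 in the mutant and 7.76, 7.65, 7.67 and 7.33 in wild type. Its change was -0.69 ± 0.16, with -0.60 and -0.77 in the 2 sets of replicates, while its other probe set gave -0.42 and overlapped. The double mutant read 7.54, 7.78 and 7.57 for orc-2, above all daf-12 arrays. The gene dma-1, whose product is a receptor for dendrite branching in the PVD neuron, differed by -0.70 ± 0.18. It read 9.70, 9.75, 9.30 and 9.43 against 10.62, 10.23, 10.08 and 10.02, and the double mutant read 9.45, 9.79 and 9.55. For the Wnt receptor gene cfz-2 the difference was -0.63 ± 0.18, and for the hedgehog-related gene wrt-8 it was -0.89 ± 0.24. The others were F49E10.2 (-0.76), C54C8.4 (-0.92), str-173 of the chemoreceptors (-0.77), ZC84.6 (-0.73), T09B4.5 (-0.64) and Y47D3A.14 (-0.57). All 10 had every mutant array below every wild type array.

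Replicates 1 and 2 and replicates 3 and 4 were also compared apart. Across the 22548 probe sets, the change in one set and the change in the other had a Pearson r of -0.21 and a Spearman rho of -0.25. Probe sets are not independent replicates, and no array is shared between these changes. The sign was the same in 8918 probe sets (39.6%). The SD of the change over probe sets was 0.387 in replicates 1 and 2 and 0.474 in replicates 3 and 4. A change of more than 1 in either direction was found in 548 probe sets in the first set and 997 in the second. It was found in both sets with the same sign in 48, of which 47 were higher, and with opposite signs in 66.

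The arrays of a set differed less in the daf-12 mutant than in wild type. The median absolute difference over probe sets was 0.191 between daf-12 arrays 1 and 2 and 0.174 between arrays 3 and 4. In wild type it was 0.322 and 0.337.

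The difference of the change between the 2 sets was tested in limma with a mean for each group and set. It called 0 probe sets, with a smallest adjusted p of 0.105, while 3889 (17.2%) had an unadjusted p under 0.05, of which 2219 were positive. That count of 0 depended on single wild type arrays. It was 487 without wild type array 1, 15 without array 2 and 2750 without array 4, fits in which 1 wild type array stands for its set. It was 0 without each other array and with the 8 arrays alone.

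The 12 genes of smallest p in that test, 6 in each direction, are given as values. The MATH domain gene math-3 read 5.02, 4.86, 7.86 and 8.54 in the daf-12 mutant and 5.10, 5.95, 4.95 and 5.61 in wild type. Replicates 3 and 4 of the mutant stood above all other arrays of math-3, including those of the double mutant. The change was -0.59 in one set and 2.92 in the other, a difference of 3.51 ± 0.47 (limma adjusted p = 0.105). Changes of opposite sign were also found in math-26 (-0.59 and 1.99), F58B3.4 (-0.71 and 2.58) and lars-2, a mitochondrial leucyl-tRNA synthetase gene (-0.80 and 1.80). For lars-2 the wild type arrays differed between the sets too, and read 5.48, 5.87, 3.99 and 4.68. In txdc-12.2, the mutant read 7.80, 8.40, 9.91 and 9.71 and wild type read 9.72, 9.39, 8.28 and 8.64, so the order of the groups was turned between the sets. In C33D9.9 the changes were -0.92 and 1.17.

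In the opposite direction were 2 glutathione S-transferase genes, gst-30 and gst-19. The gene gst-30 read 9.14, 9.34, 8.31 and 8.22 in the mutant against 6.61, 7.10, 9.06 and 8.30 in wild type, a change of 2.39 in replicates 1 and 2 and of -0.41 in replicates 3 and 4 (limma adjusted p of the difference = 0.105). The changes of gst-19 were 1.95 and -0.13. The SCF ubiquitin ligase gene skr-8 changed by 0.63 and -1.81, and the neuropeptide gene nlp-17 by 1.33 and -0.33. Those of M02H5.8 were 1.04 and -0.80, and those of Y56A3A.33 were 0.95 and -1.22.

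**Figure D3:**
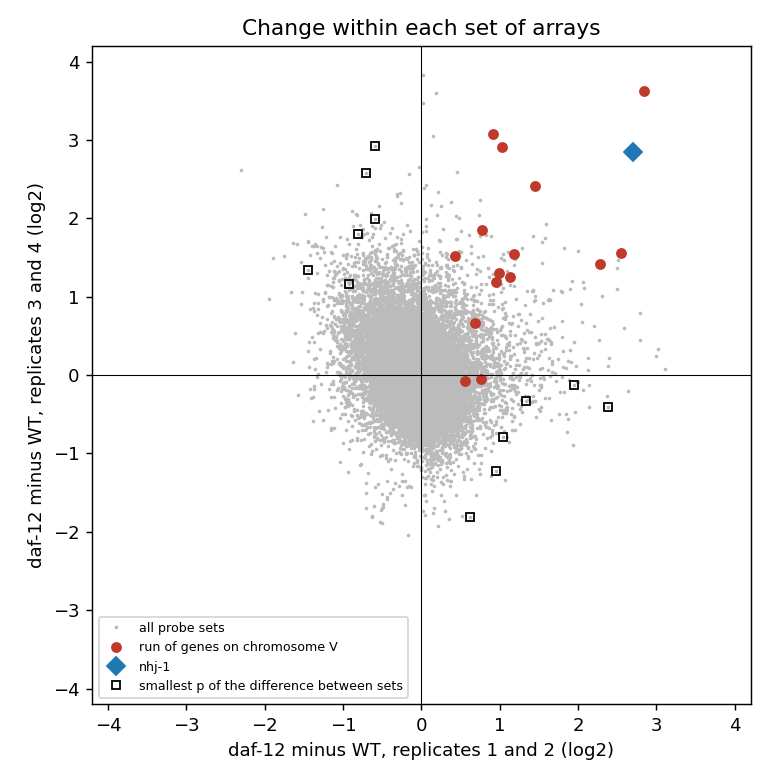
Change in log2 expression, daf-12 minus wild type, in replicates 1 and 2 (horizontal axis) and in replicates 3 and 4 (vertical axis), a point for each of 22548 probe sets. The gene nhj-1 (2.70 and 2.84) and most of the chromosome V run lie at the upper right, and squares mark the 12 genes of smallest p for a difference between the sets.

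Gene lists were described by counts and medians, with 1 probe set for each gene. Over all 17118 genes, 46.0% had a change above 0 and the median was -0.02. At an unadjusted p under 0.05, 355 genes were higher and 155 lower. Apart from nhj-1 in the list of DNA repair genes, 0 members of any list were called by limma in either direction. Members were counted only by probe sets with a single gene name. The called probe set of F56A4.2 and clec-209 is therefore not among the C-type lectins, and that of F56A4.3 and gst-10 is not among the glutathione S-transferases.

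Genes of detoxification were mostly on the higher side. UDP-glucuronosyltransferases attach sugars to foreign and waste compounds so that they can be excreted. Of 64 measured, 54 (84.4%) had a change above 0, and 15 were higher and 0 lower at an unadjusted p under 0.05. In 10 (15.6%) all daf-12 arrays were above all wild type arrays, against 0.900% over all genes. Their median change was 0.30, with 0.26 and 0.49 in the 2 sets of replicates. The mean over the list was 6.37, 6.54, 6.71 and 6.52 on the daf-12 arrays and 6.01, 6.33, 5.93 and 6.28 on the wild type arrays, with no overlap. On the double mutant arrays it was 6.47, 6.06 and 6.10. The gene ugt-46 read 9.96, 9.72, 9.74 and 9.39 against 8.27, 8.86, 8.65 and 9.07, a difference of 0.99 ± 0.22 (limma adjusted p = 0.863), and its other probe set gave 1.12. For ugt-41 and ugt-32 the differences were 1.39 and 0.65.

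Glutathione S-transferases join glutathione to reactive compounds. Of 45 measured, 40 (88.9%) had a change above 0, and at an unadjusted p under 0.05, 9 were higher and 0 lower. Their median was 0.34 (0.345), but it was 0.59 in replicates 1 and 2 and -0.01 in replicates 3 and 4. The list averaged 8.24, 8.15, 8.14 and 8.09 on the daf-12 arrays and 7.13, 7.60, 8.07 and 8.01 on the wild type arrays. The mutant arrays were all above the others, but by little over wild type arrays 3 and 4. The median became 0.54 when wild type array 3 was left out and 0.25 when wild type array 1, the lowest for this list, was left out. The omega class gene gsto-1 read 8.38, 8.63, 9.64 and 9.04 against 6.63, 7.21, 7.81 and 7.02, a difference of 1.75 ± 0.37 (limma adjusted p = 0.803). The double mutant read 7.66, 6.52 and 6.17 for gsto-1, inside or below the wild type range. Both sets held the difference of gsto-1, at 1.59 and 1.92. For gst-6 and gst-41 it was 0.71 and 0.54, again with no overlap of arrays. Of 73 cytochrome P450 genes, 44 (60.3%) had a change above 0, and their median was 0.12, with 0.10 and 0.03 in the 2 sets. It was 0.04 without daf-12 array 2 and 0.06 without wild type array 3. Among the P450 genes cyp-32A1 differed by 1.19 and cyp-29A3 by 0.93.

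Of 13 genes of the response to oxidative stress and metals, 12 had a change above 0. The median was 0.53, with 0.61 in replicates 1 and 2 and 0.06 in replicates 3 and 4. It was 0.29 without wild type array 1 and 0.26 without daf-12 array 1. The manganese superoxide dismutase gene sod-3 read 8.61, 8.91, 9.03 and 8.61 against 6.61, 7.85, 8.57 and 8.20, a difference of 0.98 ± 0.34 (limma adjusted p = 1.00). Wild type array 1 was the lowest for sod-3, and it was also the lowest wild type array for gst-6. The catalase gene ctl-2 differed by 0.53 ± 0.17. The largest change of the list was in mtl-1, a metallothionein gene, at 1.72 ± 0.74, with overlapping arrays.

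Markers of the intestine moved in the same direction as these lists. Of 16 measured, 13 (81.3%) had a change above 0, and the median was 0.25, with 0.34 and 0.23 in the 2 sets. It was 0.17 without wild type array 1 and 0.14 without daf-12 array 1. The list averaged 8.71 to 8.89 on the daf-12 arrays and 8.07 to 8.62 on the wild type arrays. Members differed widely, and one of them, mtl-1, is also in the list above. The intermediate filament gene ifc-2 differed by 0.70 ± 0.20, with no overlap of arrays, and the transporter gene pgp-3 by 1.25. The intestinal actin gene act-5 differed by 0.01 and the filament gene ifb-2 by 0.13. Their part in the detoxification lists was not tested. Of 85 genes of fatty acid metabolism, 50 had a change above 0 with a median of 0.04, which was 0.01 without daf-12 array 1 and 0.10 without wild type array 2. The desaturase gene fat-6 differed by 1.02, with 6.86 on wild type array 1 and 8.68 to 8.81 on the other wild type arrays.

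Genes of dividing cells were on the lower side, mainly in replicates 3 and 4. Among 30 genes of DNA replication and the cell cycle, 2 had a change above 0, and at an unadjusted p under 0.05, 0 were higher and 3 lower. The median was -0.25, with -0.02 in replicates 1 and 2 and -0.53 in replicates 3 and 4. The list averaged 7.10, 7.09, 6.70 and 6.70 on the daf-12 arrays and 7.18, 7.05, 7.39 and 7.09 on the wild type arrays, so the groups overlapped. Next to orc-2, the cyclin B gene cyb-1 differed by -0.80 ± 0.33 (limma adjusted p = 1.00). Its other probe sets gave -0.62 and -0.46. Histone genes, 34 in number, had medians of 0.10 and -0.58 in the 2 sets and of -0.22 in all. Without wild type array 3 the overall medians were -0.17 for the replication genes and -0.14 for the histones.

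Markers of adults and gametes moved with these lists. The median of 23 major sperm protein genes, which are made in sperm, was -0.42, with 0.13 and -1.06 in the 2 sets, and 0 had a change above 0. Without wild type array 3 the median was -0.16, without daf-12 array 4 it was -0.23, and without wild type array 2 it was -0.65. The mean of these genes was 5.84 and 5.70 on daf-12 arrays 3 and 4 against 7.26 and 6.28 on wild type arrays 3 and 4. The 5 vitellogenin genes, for yolk proteins of the adult intestine, had a median of -0.23, with 0.08 and -0.53. The 17 genes of the germline and its P granules had a median of -0.15, with 0.12 and -0.45. It was -0.26 without daf-12 array 1 and -0.05 without daf-12 array 3. Their part in the lower values of replication and histone genes was not tested.

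Cuticle collagens and neuropeptides differed between the sets of replicates. Of the 143 collagens, 0 separated the groups, near the all-gene shares of 0.900% above and 0.678% below. Their median was 0.10, with 0.40 in replicates 1 and 2 and -0.23 in replicates 3 and 4. Without wild type array 2 it was -0.04, and without wild type array 3 it was 0.27. The 83 neuropeptide genes had a median of 0.11, with 0.33 and -0.02, and it ran from -0.08 without wild type array 1 to 0.27 without daf-12 array 2. The 58 ciliary genes had a median of -0.15, with -0.46 and 0.21 in the sets. It turned to 0.06 without daf-12 array 1 and to 0.01 without daf-12 array 2, and was -0.29 without daf-12 array 4. Of these genes 22 had a change above 0, and 4 were lower and 0 higher at an unadjusted p under 0.05. The transition zone gene tctn-1 differed by -0.49 ± 0.19 and the kinesin gene klp-20 by -0.42 ± 0.22 (limma adjusted p = 1.00 for both), while the other probe set of klp-20 gave -0.12. In tctn-1 the daf-12 arrays read 8.14, 8.17, 8.06 and 7.89 and wild type read 8.71, 8.35, 8.74 and 8.44. The double mutant read 5.86, 5.11 and 5.25.

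Markers of the remaining tissues had medians of -0.07 for 19 body wall muscle genes, 0.10 for 13 of the pharynx, -0.03 for 23 of neurons and -0.18 for 14 of the epidermis. In 0 of these genes did the groups separate, which is near the all-gene shares of 0.900% above and 0.678% below. Single arrays turned the sign of the first 3 medians, to 0.05 for muscle and 0.07 for neurons without wild type array 2, to 0.12 for neurons without daf-12 array 2, and to -0.01 for the pharynx without daf-12 array 4. The epidermal median was -0.10 without wild type array 1. Muscle, gut and nerve markers were bright in both groups, with myosin gene myo-3 at 10.1 and 10.2, act-5 at 12.1 in each, and the synaptic gene rab-3 at 10.6 and 10.5.

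**Figure D4:**
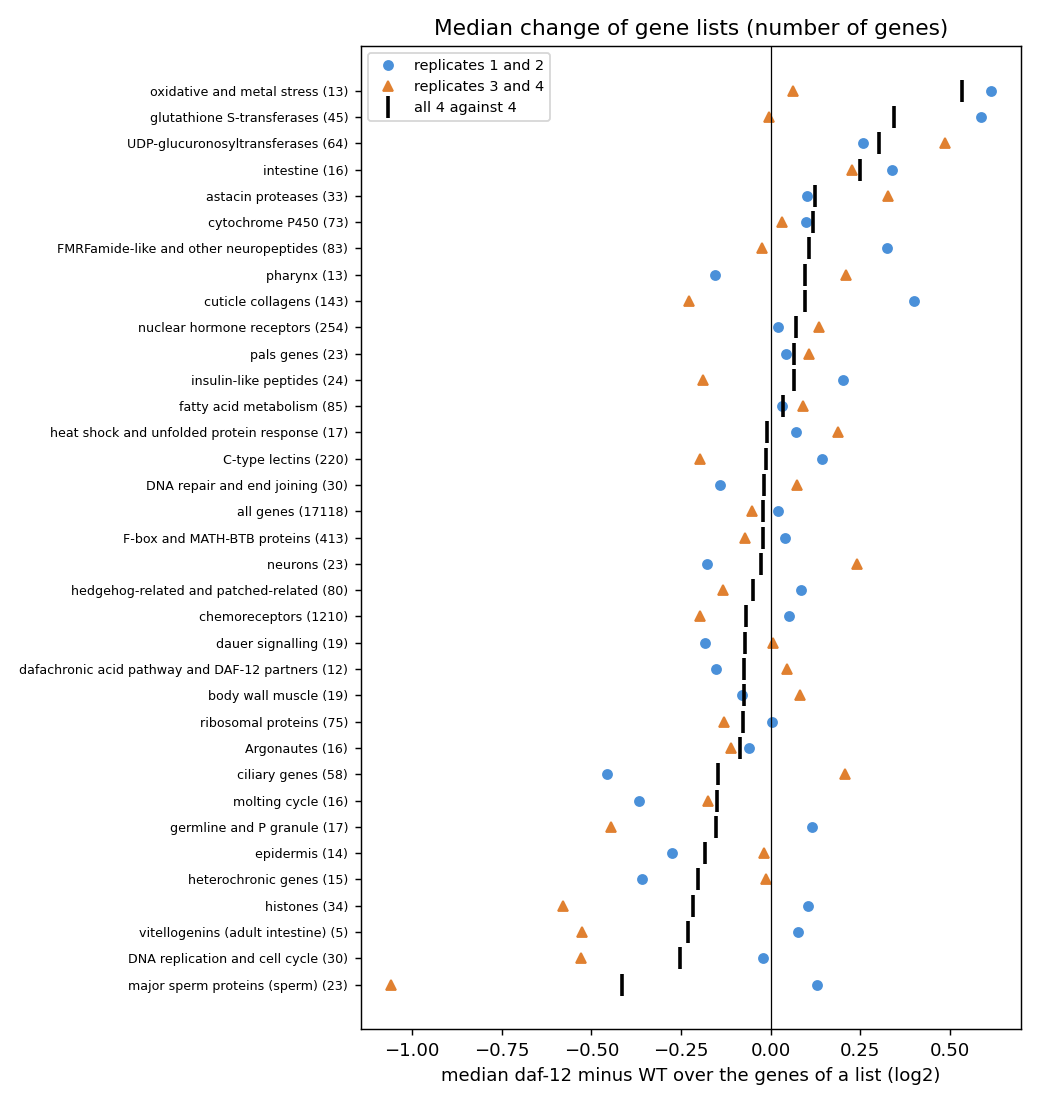
Median change in log2 expression, daf-12 minus wild type, over the genes of each list, with the number of genes measured. Black bars are all 4 arrays against 4, circles replicates 1 and 2 and triangles replicates 3 and 4. UDP-glucuronosyltransferases lie at 0.26 and 0.49 in the 2 sets, while glutathione S-transferases lie at 0.59 and -0.01.

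The receptor gene and its hormone pathway were then read gene by gene. The daf-12 transcript read 8.83, 8.85, 8.48 and 8.84 in the mutant and 8.96, 9.33, 8.09 and 8.83 in wild type, means of 8.75 ± 0.18 and 8.80 ± 0.52 (SD, n = 4 and 4). The arrays overlapped, and the change of daf-12 was -0.05 ± 0.27 (SE; limma adjusted p = 1.00). Its other probe sets gave 0.05 and 0.06. The labels do not say what the allele does to the transcript, so these values do not check the genotype. The daf-19 transcript differed by -0.17 ± 0.19.

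Of the 12 genes of dafachronic acid synthesis and of DAF-12 partners, 5 had a change above 0 and the median was -0.07. It turned to 0.11 without wild type array 2 and was -0.18 without wild type array 3. At an unadjusted p under 0.05, 0 were higher and 0 lower, and in 0 did the groups separate. With all-gene shares of 0.900% above and 0.678% below, a count of 0 separated genes among 12 is near the background. The gene daf-9, for the cytochrome P450 that makes the hormone, read 6.66, 6.45, 5.68 and 5.90 in the mutant and 6.53, 6.08, 5.85 and 5.82 in wild type, a change of 0.11 ± 0.27. Both groups were higher for daf-9 in replicates 1 and 2. The Rieske oxygenase gene daf-36, for the first step from cholesterol, differed by 0.22 ± 0.21. The hydroxysteroid dehydrogenase genes dhs-16 and hsd-1 differed by -0.09 ± 0.20 and -0.39 ± 0.20. The gene emb-8, for the reductase that passes electrons to cytochrome P450, differed by 0.28 ± 0.23.

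The gene strm-1, for a sterol methyltransferase that draws sterols away from hormone synthesis, had the lowest value, at -0.69 ± 0.35 (limma adjusted p = 1.00). It read 7.55, 8.80, 9.32 and 8.40 in the mutant against 9.58, 8.83, 9.57 and 8.85 in wild type, and the groups overlapped. The sterol transport genes ncr-1 and ncr-2, related to human NPC1, differed by 0.17 ± 0.25 and -0.29 ± 0.34. The corepressor gene din-1 differed by -0.33 ± 0.59. It read 7.25, 7.21, 5.73 and 5.60 in the mutant and 7.24, 8.09, 6.25 and 5.51 in wild type, higher in replicates 1 and 2 of each. The receptor genes closest to daf-12, nhr-8 and nhr-48, differed by 0.24 ± 0.23 and -0.28 ± 0.37.

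**Figure D5:**
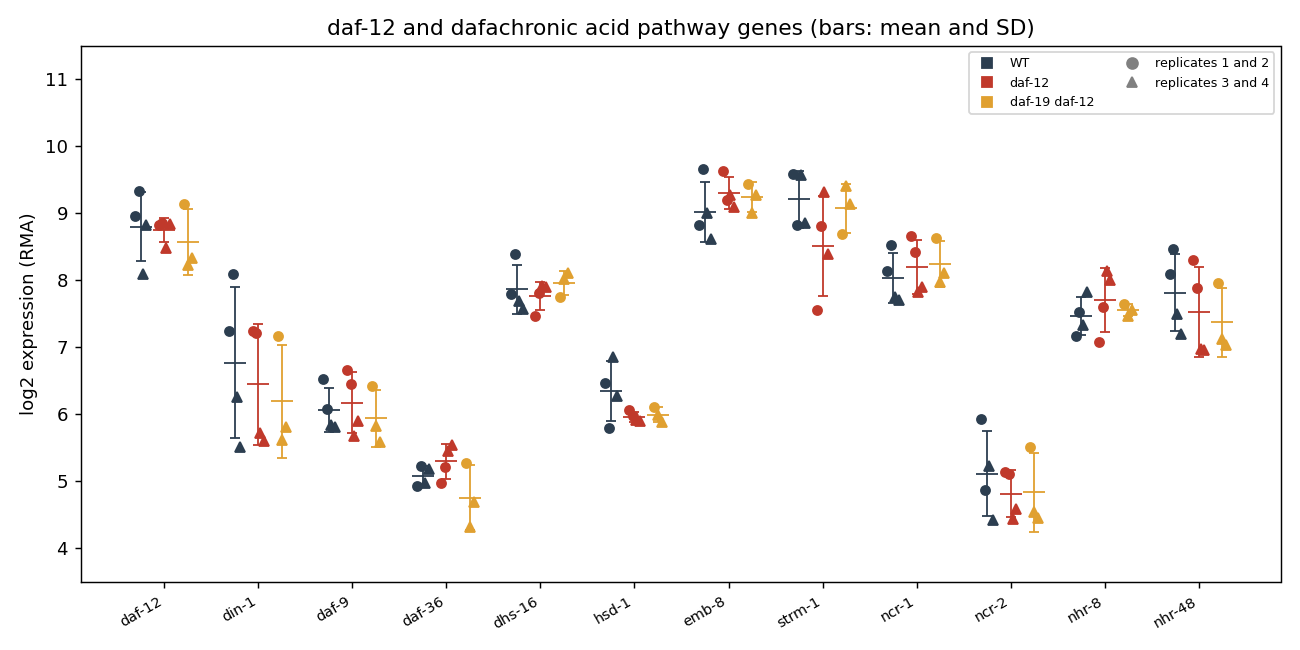
Log2 expression of daf-12 and 11 genes of the dafachronic acid pathway by group. Points are single arrays, circles replicates 1 and 2 and triangles replicates 3 and 4, and bars are the mean and SD. The daf-12 and wild type arrays overlap in all 12 genes, and daf-12 itself averages 8.75 and 8.80.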

How the data were processed

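The deposited values are log2 expression for each probe set, made with RMA per the submitters' processing notes, with no version given. They ran from 2.83 to 14.66, and array medians lay between 6.20 and 6.36. Of 22625 probe sets, 77 controls were left out. The platform annotation gave 20766 of the rest 1 gene name, 887 several and 895 none. A RefSeq table of assembly WBcel235 held 20701 of the 20766 and was used for names, chromosomes and gene order alone, since the array's own build is not given in the sources used here. The members, gene lists and tests were chosen with earlier results of these data known.

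The fit used lmFit and eBayes of limma 3.58.1 (R 4.3.3), with a mean for each group over 11 arrays and no block. Two-sided tests were adjusted by Benjamini-Hochberg over 22548 probe sets, and called at an adjusted p under 0.05. The scripts were tested on simulated data. A gene with several probe sets was represented by the one with the highest mean over all arrays. Only probe sets with a single gene name were used for this. They covered 17118 genes, 2981 of them with more than 1 probe set.

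Named genes were daf-12, daf-19, the dafachronic acid list, up to 15 called genes in each direction with or without the block for the set of arrays, genes of smallest p up to 10 in each direction, up to 3 genes of each list with arrays that did not overlap, and the 6 genes of smallest p in each direction for the difference between the sets. Probe sets with several names, the genes of the chromosome V run and the tissue markers with no separation between the groups were named outside this rule, after their values were seen.

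Deviations of probe sets from the group mean, at the same replicate number in the daf-12 mutant and wild type, correlated at 0.32, -0.03, 0.03 and 0.67, so equal numbers were not taken as pairs. Alternatives were the 8 arrays alone, blocks, all 12 columns as separate arrays, quantile normalization, median centring, the brighter probe sets, another variance prior, either set of replicates alone, and leaving out each array in turn.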

Additional observations from a re-analysis of the deposited data

Results flagged for a closer look

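Among the named genes, 172 groups of 4 arrays were examined for an array far from the other 3, and 10 were found. Chance flags about 1 in 20 such groups. Wild type array 1 stood apart in 4 genes. It read 6.86 for fat-6 (others 8.68 to 8.81), 8.62 for gst-6 (others 9.32 to 9.40), 10.94 for lbp-6 (others 11.31 to 11.39) and 4.22 for fbxc-49 (others 3.68 to 3.77). Wild type array 3 read 9.75 for daf-19 (others 10.25 to 10.28), 6.67 for str-173 (others 7.02 to 7.07) and 5.05 for grl-13 (others 5.42 to 5.43). In the daf-12 mutant, array 3 read 8.48 for daf-12 (others 8.83 to 8.85), array 2 read 5.33 for sre-11 (others 5.17 to 5.18) and array 4 read 9.93 for nlp-17 (others 10.27 to 10.34).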

How the results depend on the processing

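All 12 columns as separate arrays, quantile normalization, median centring, the brighter probe sets and a prior with trend and robust weights each called the same 3 probe sets higher in the daf-12 mutant. The fit of 12 columns counts the identical double mutant columns 1 and 2 as separate arrays, so it adds no new data. The count was 0 with the 8 arrays alone, 5 with a block for the set, 0 with replicates 1 and 2 alone and 13 with replicates 3 and 4 alone, of which 2 were among the 3 and 5 lay in the chromosome V run. It ran from 0 to 2 over the fits that left out 1 array. With the replicate number as a block in the 8 arrays it was 0 (smallest adjusted p 0.3012). No probe set was called lower in any of these limma fits, with 109 to 2135 lower at an unadjusted p under 0.05. The count of probe sets with a different change in the sets ran from 0 to 2750 when 1 array was left out. With replicates 1 and 2 alone the sign turned for skr-8 (0.63), math-26 (-0.59), math-3 (-0.59), F58B3.4 (-0.71), C33D9.9 (-0.92), Y56A3A.33 (0.95), lars-2 (-0.80) and nhr-8 (-0.01). With replicates 3 and 4 alone it turned for daf-12 (0.20), daf-19 (0.065), M02H5.8 (-0.80), nlp-17 (-0.33), txdc-12.2 (1.34), daf-9 (-0.039), gst-19 (-0.13), gst-30 (-0.41) and dhs-16 (0.27). The other daf-12 probe sets gave 0.0475 and 0.0598. Leaving out 1 array gave -0.29 to 0.125 for daf-12, -0.15 to 0.43 for M02H5.8, -0.11 to 0.33 for C33D9.9, -0.37 to 0.33 for txdc-12.2, -0.39 to 0.13 for Y56A3A.33, -0.0563 to 0.27 for daf-9, -0.19 to 0.0829 for dhs-16 and -0.75 to 0.11 for din-1. The cause of these turns was not tested. The planned search for DAF-12 half-sites in promoters was not run, since no sequence was used here.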

Other observations

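Other gene groups of the daf-12 and wild type comparison are given here as values, with limma adjusted p of 1.00 for each gene named unless stated. Of 254 nuclear hormone receptor genes, the family of daf-12, 162 (63.8%) had a change above 0, 7 were higher and 0 lower at an unadjusted p under 0.05, and the median was 0.07 (0.04 without daf-12 array 3). Besides nhr-125 (adjusted p = 0.471), nhr-205 read 5.05, 5.48, 5.52 and 4.96 in the mutant and 4.63 to 4.797 in wild type, a difference of 0.55 ± 0.17. For nhr-176 it was 0.29 ± 0.13. The groups did not overlap in either gene.

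The list of 220 C-type lectin genes leaves out the called probe set of F56A4.2 and clec-209, which has 2 names. Of the 220, 47.3% had a change above 0. Their median was -0.01, and -0.06 to 0.04 when 1 array was left out, highest without daf-12 array 3. In 6 of them (2.73%) all daf-12 arrays were above all wild type arrays, against 0.900% over all genes. One of the 6, clec-76 (1.04 ± 0.26), read 4.62, 4.45, 5.44 and 5.72 against 3.96, 4.11, 3.87 and 4.14. The 1210 chemoreceptor genes had a median of -0.07 with 0.05 and -0.20 in the sets of replicates, and 390 (32.2%) above 0. That median was 0.03 without wild type array 1 and -0.16 without daf-12 array 2. The 413 F-box and MATH-BTB genes had a median of -0.02, and of -0.04 without daf-12 array 2.

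For 17 genes of the heat shock and unfolded protein responses the median was -0.01, and 0.22 without wild type array 2. One of them, the small heat shock protein gene hsp-12.3, read 10.51, 11.21, 10.37 and 10.54 in the daf-12 mutant, 9.37, 10.01, 9.50 and 9.90 in wild type, and 11.57, 10.98 and 11.20 in the double mutant. Its difference from wild type was 0.96 ± 0.23, and the arrays did not overlap. The 15 heterochronic genes, which time larval development, had a median of -0.20, with -0.36 and -0.01 in the 2 sets, and 4 had a change above 0. Without wild type array 4 that median was -0.42, and without wild type array 3 it was -0.34. Ribosomal protein genes, 75 in all, had a median of -0.08 with changes between -0.23 and 0.05, and of -0.13 without wild type array 2. The 33 astacin protease genes had a median of 0.13, with 0.10 and 0.33. It was 0.04 without daf-12 array 4 and 0.25 without daf-12 array 2 or wild type array 4. Of these genes nas-9 differed by 0.77 ± 0.25.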
